A study of Danio rerio with 18 samples.

Results

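The cytochrome P450 genes of zebrafish larvae exposed to perfluorobutanesulfonic acid (PFBS), apart from cyp2k18 and 3 others, numbered 82 of the 32520 genes in the deposited table, with 145 of its 59876 transcripts. They were taken by name, as every gene whose symbol starts with cyp and a digit, and the 4 symbols cyp2k18, cyp51, cyp26a1 and cyp26b1 were left out. The rule reads symbols only. The reads of a gene's transcripts were summed. The 82 genes carry 78 symbols, because cyp2k6, cyp2x10.2, cyp2y3 and cyp3c3 each name 2 genes, which are told apart here by their Ensembl identifiers. Enough reads for a test were found for 67 genes, and the other 15 had between 6 and 110 reads over all 18 libraries together. The 67 are therefore the better expressed P450 genes and not all of them.

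The samples were whole bodies of AB wild-type larvae at 120 hours post fertilisation, with 3 samples in each of 6 groups: controls and larvae exposed to 7, 70, 700, 3500 or 7000 µM PFBS, a short-chain perfluorinated surfactant. The sources used here do not state what the controls received, when exposure began or how many larvae made a sample. Nothing in the labels ties a sample to its own animals or pool, so the error behind each p-value is that among these samples and may be technical. In whole-body RNA, fewer cells of a type and less RNA per cell cannot be told apart.

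Cytochrome P450 enzymes are haem proteins that insert an oxygen atom into their substrate, with electrons delivered by a reductase in the endoplasmic reticulum or by a ferredoxin in mitochondria. Families 1 to 3 oxidise drugs, pollutants and fatty acids, mainly in liver and gut, and many of their genes respond to ligand-activated receptors: the aryl hydrocarbon receptor for family 1 and the pregnane X receptor for family 3. The remaining families have set tasks in the synthesis and breakdown of bile acids, oxysterols, steroid hormones, vitamin D and retinoids.

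The libraries held 14937147 to 19267232 reads, of which the 82 genes took 0.0439% to 0.0755%. Levels are given as CPM, a gene's reads scaled to a common library size after TMM normalisation, so they compare 1 gene or list between samples. The highest P450 share of reads was that of 70 µM replicate 1, which also had the highest sums for hepatocyte markers (16 genes, 1237 CPM, against 517 and 549 in the other 70 µM samples) and enterocyte markers (11 genes, 1198, against 629 and 708). None of those marker genes was at 0. In 7000 µM replicate 3 the sum of 6 skeletal muscle markers was 13030 CPM, against 34700 and 36490 in the other samples of that group and 52190 to 54750 in controls, and the sum of 5 skin markers was 1263, against 4318 and 4506 in that group and 8425 to 10310 in controls. The part of these libraries in the P450 results was measured by leaving them out, as given below.

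Between genes only the authors' deposited TPM values, which are scaled for length, were compared. In controls cyp2ad3, of a subfamily related to mammalian CYP2J, and cyp3a65, the CYP3A enzyme of zebrafish gut and liver, had the highest levels, with mean TPM of 62.5 ± 8.45 and 56.9 ± 5.72 (SD, n = 3). In control replicates 1, 2 and 3 cyp2ad3 had 62.37, 71.05 and 54.15 TPM, against 61.9, 58.04 and 50.65 for cyp3a65. cyp2ad3 was thus the higher of the 2 in each control sample, by little in replicate 1, and this difference was not tested. At 7000 µM the order was the other way, with mean TPM of 58.7 for cyp2ad3 and 83.0 for cyp3a65. In controls these 2 genes were followed by cyp3c1 at 18.8 ± 1.56 TPM, by the longer of the cyp2y3 genes at 12.8 ± 1.90 and by cyp2n13 at 10.3 ± 1.21. The lowest of the 82 was cyp19a1a, the ovarian aromatase, at a mean of 0.0267 TPM and with 6 reads in the whole series.

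**Figure D1:**
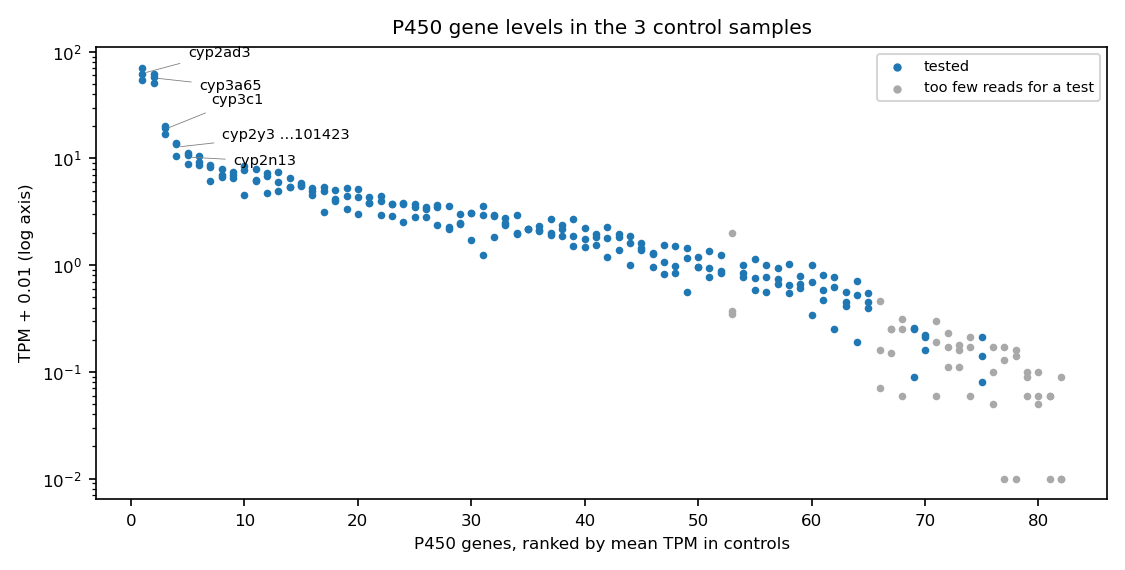
Deposited TPM, plus 0.01 and on a log axis, of the 82 P450 genes in the 3 control samples, 1 point a sample, with genes ranked by their mean. cyp2ad3 and cyp3a65 stand above the rest at 62.5 and 56.9 TPM, and the grey points are genes with too few reads for a test.

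Each concentration was compared with controls, and 7000 µM with 3500 µM, by edgeR's quasi-likelihood test in 1 fit over the 18 libraries and all 21046 genes with enough reads. A trend over the order of the 6 groups was read from the same fit as a log2 change per step. A gene is called here when its Benjamini-Hochberg adjusted p over all genes tested was under 0.05, and a log2 fold change is given with its standard error (n = 3 a group throughout).

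P450 genes were called mainly at the 2 highest concentrations, as were genes over the whole transcriptome. At 7 µM none of the 67 was called by edgeR, against 0.0333% of all genes, and DESeq2 called 1, cyp8b1 (adjusted p = 0.0146). At unadjusted p under 0.05 there were 18 P450 genes at 7 µM, or 26.9% of those tested, against 5.02% of all genes. Of these 13 were higher, against 3.05% of all genes, and 5 lower, against 1.97%. By the same unadjusted cutoff the P450 share was 22.4%, 26.9%, 28.4% and 35.8% as concentration rose from 70 to 7000 µM. The share of all genes by that cutoff was taken for 7 µM only. The P450 shares from 70 µM upwards therefore cannot be set against all genes, and no excess particular to 7 µM can be read. At 70 µM 1 P450 gene was called, lower, where 0.28% of all genes were called and 0.095% were lower, and it was lost in 5 of the fits that left out 1 library, that without 70 µM replicate 1 among them. At 700 µM 1 was called, higher, where 3.2% of all genes were called and 1.27% were higher. At 3500 µM 7 were called, or 10.4% against 9.47% of all genes, with 4 higher (5.14% of all genes) and 3 lower (4.33%). At 7000 µM 16 were called, or 23.9% against 25.0% of all genes, with 7 higher (12.7% of all genes) and 9 lower (12.3%). The trend called 26, or 38.8% against 37.5% of all genes, with 12 upward (18.6% of all genes) and 14 downward (18.9%). From 3500 µM upwards the share of P450 genes called was thus near that of all genes, and the median log2 fold change of the 67 lay near that of all genes as well, at -0.02 against -0.01 at 7000 µM and 0.07 against 0.01 at 3500 µM. At 7 µM that median was 0.13, against 0.00 for all genes. Regardless of sign, the median size of the log2 fold change was larger for the P450 genes. It was 0.37 against 0.28 for all genes at 7000 µM and 0.33 against 0.22 at 3500 µM. At 700, 70 and 7 µM it was 0.32 against 0.19, 0.26 against 0.15 and 0.29 against 0.11. These sizes were not tested. Without 7000 µM replicate 3 the count at 7000 µM was 9 (4 higher, 5 lower), that of the trend 19 (7 higher, 12 lower), that at 3500 µM 9 (6 higher, 3 lower) and that at 700 µM 4 (2 higher, 2 lower). Calls among all genes moved between the fits that left out 1 library as well. They ranged from 2362 to 5616 at 7000 µM and from 5758 to 8524 in the trend. At 3500 µM the range was 478 to 3333 and at 700 µM 42 to 1302.

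**Figure D2:**
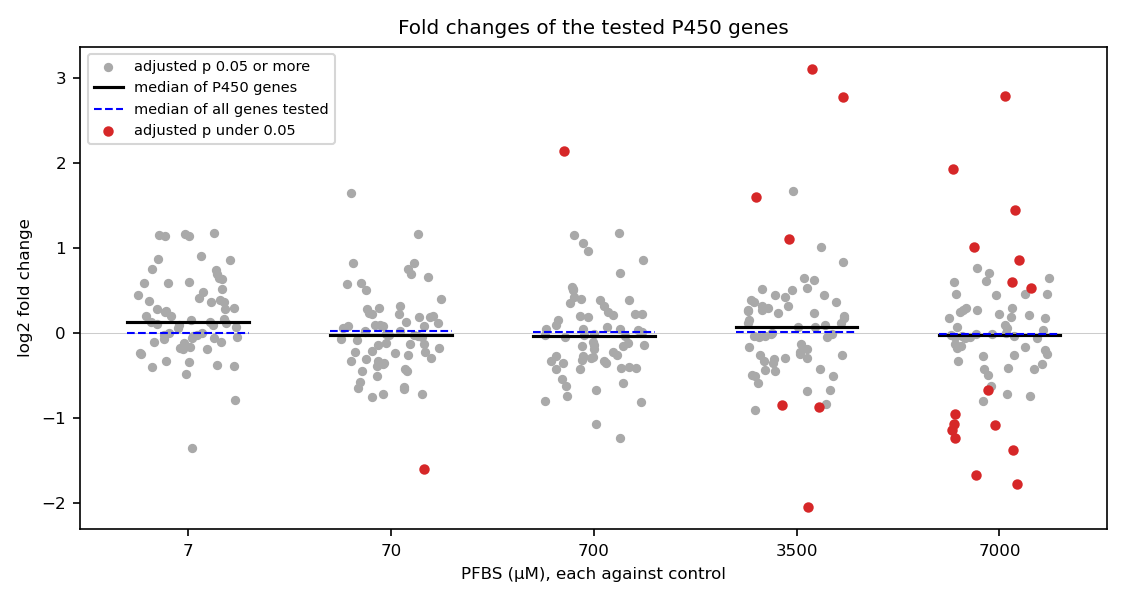
Log2 fold change against controls (vertical axis) of each of the 67 tested P450 genes, 1 point a gene, at 7, 70, 700, 3500 and 7000 µM PFBS, with the median of the P450 genes (solid) and of all genes tested (dashed). Called genes are red: 0, 1, 1, 7 and 16 in that order of concentration, spread to both sides of 0.

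Over the 7 tests 30 of the 67 P450 genes were called at least once, or 44.8%, against 42.0% of all genes. Family 2 outside vitamin D metabolism held 15 of the 30, and it held 33 of the 67 tested. The bile acid and oxysterol set held 6 of the 30 and 11 of the 67. Called genes went in both directions. Neighbouring members of 1 subfamily did not all move together, as the cyp2aa and cyp2k genes show.

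**Figure D3:**
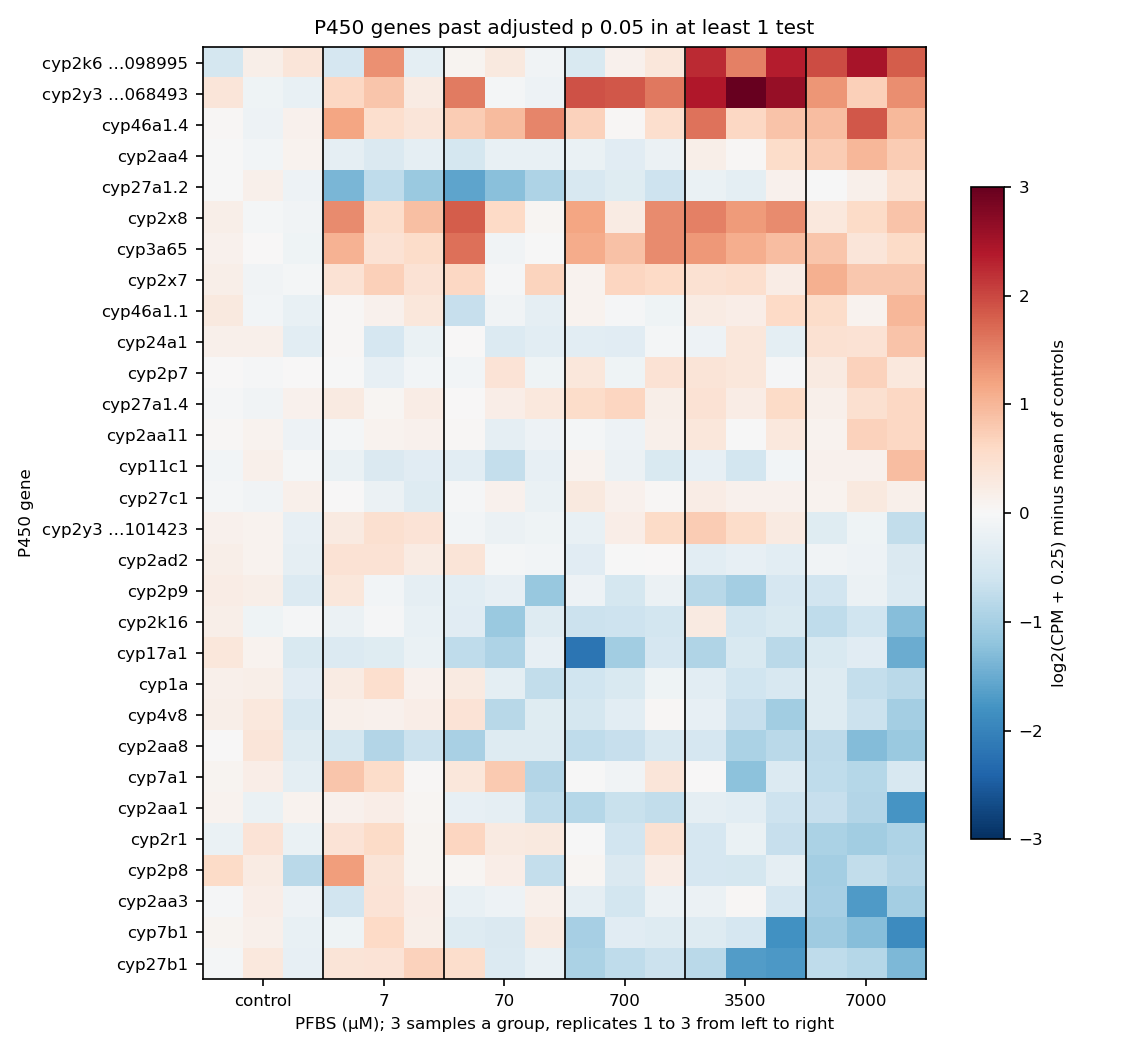
Level of the 30 P450 genes called in at least 1 test, as log2(CPM + 0.25) minus the mean of the 3 controls, in each of the 18 samples from controls on the left to 7000 µM on the right. The uppermost genes, cyp2k6 and cyp2y3, are high from 3500 µM or 700 µM, and the lowest, cyp7b1 and cyp27b1, are low at 3500 and 7000 µM.

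Family 1 includes textbook targets of the aryl hydrocarbon receptor, cyp1a among them, which oxidise planar aromatic pollutants. None of the 5 genes was higher at any concentration by the test, and 1, cyp1a, was lower at 7000 µM, where 12.3% of all genes were lower. For cyp1a, CPM was 6.97, 7.15 and 4.89 in controls, 7.40, 9.03 and 6.89 in 7 µM larvae, 7.61, 5.08 and 3.62 in 70 µM larvae, 4.04, 4.48 and 5.71 in 700 µM larvae, 4.95, 4.02 and 4.44 in 3500 µM larvae, and 4.71, 3.70 and 3.48 in 7000 µM larvae. The 3 samples at 7000 µM all lay below the 3 controls, while those at 7 µM overlapped them. At 7000 µM cyp1a fell by 0.68 on the log2 scale (SE 0.23, adjusted p = 0.0424), and its trend was -0.17 ± 0.04 per step (adjusted p = 0.00317). The call at 7000 µM was lost when 7000 µM replicate 2 or 3 or control replicate 1 or 2 was left out (adjusted p = 0.0920 to 0.152), whereas the trend was called in each of the 18 fits that left out 1 library. The others had log2 fold changes at 7000 µM of -0.28 ± 0.25 for cyp1b1, -0.06 ± 0.24 for cyp1c1, -0.63 ± 0.30 for cyp1c2 and 0.07 ± 0.14 for cyp1d1 (adjusted p between 0.138 and 0.867). For cyp1c1 the approximate 95% interval was -0.53 to 0.40 and for cyp1d1 -0.21 to 0.35.

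In family 3, cyp3a65 had its highest group means at 700 and 3500 µM, and it rose at 3500 µM by the test. CPM was 93.4, 85.7 and 78.6 in controls, 178, 116 and 125 in 7 µM larvae, 269.5, 80.1 and 85.3 in 70 µM larvae, 186, 158 and 231 in 700 µM larvae, 211, 182 and 164 in 3500 µM larvae, and 153, 110.2 and 127 in 7000 µM larvae. All 12 samples at 7, 700, 3500 and 7000 µM lay above the highest control, and at 70 µM replicate 1 was the highest of the series while the other 2 were within the range of the controls. At 3500 µM cyp3a65 rose 2.16-fold (log2 1.11 ± 0.32, adjusted p = 0.0411). This call was lost with DESeq2 (adjusted p = 0.0570) and when 3500 µM replicate 1 or 3 or control replicate 1, 2 or 3 was left out (adjusted p = 0.0889 to 0.130). The change at 700 µM was 1.16 ± 0.32 on the log2 scale (adjusted p = 0.0577), at 7000 µM 0.60 ± 0.32 (adjusted p = 0.182) and at 7 µM 0.70 ± 0.32 (adjusted p = 0.970). The 4 cyp3c genes, neighbours on chromosome 3, were not called at any concentration. The most abundant of them, cyp3c1, had 26.0, 25.2 and 25.4 CPM at 3500 µM, against 25.4, 24.9 and 22.7 in controls, a log2 difference with an approximate 95% interval of -0.14 to 0.27.

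The summed level of the 11 enterocyte markers moved in part with cyp3a65: it was 653, 653 and 573 CPM in controls, 918, 811 and 719.5 in 7 µM larvae, 1198, 708 and 629 in 70 µM larvae, 788, 716 and 926 in 700 µM larvae, 972, 763 and 922 in 3500 µM larvae and 624, 583 and 508 in 7000 µM larvae. Its part in the cyp3a65 result was not tested.

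**Figure D4:**
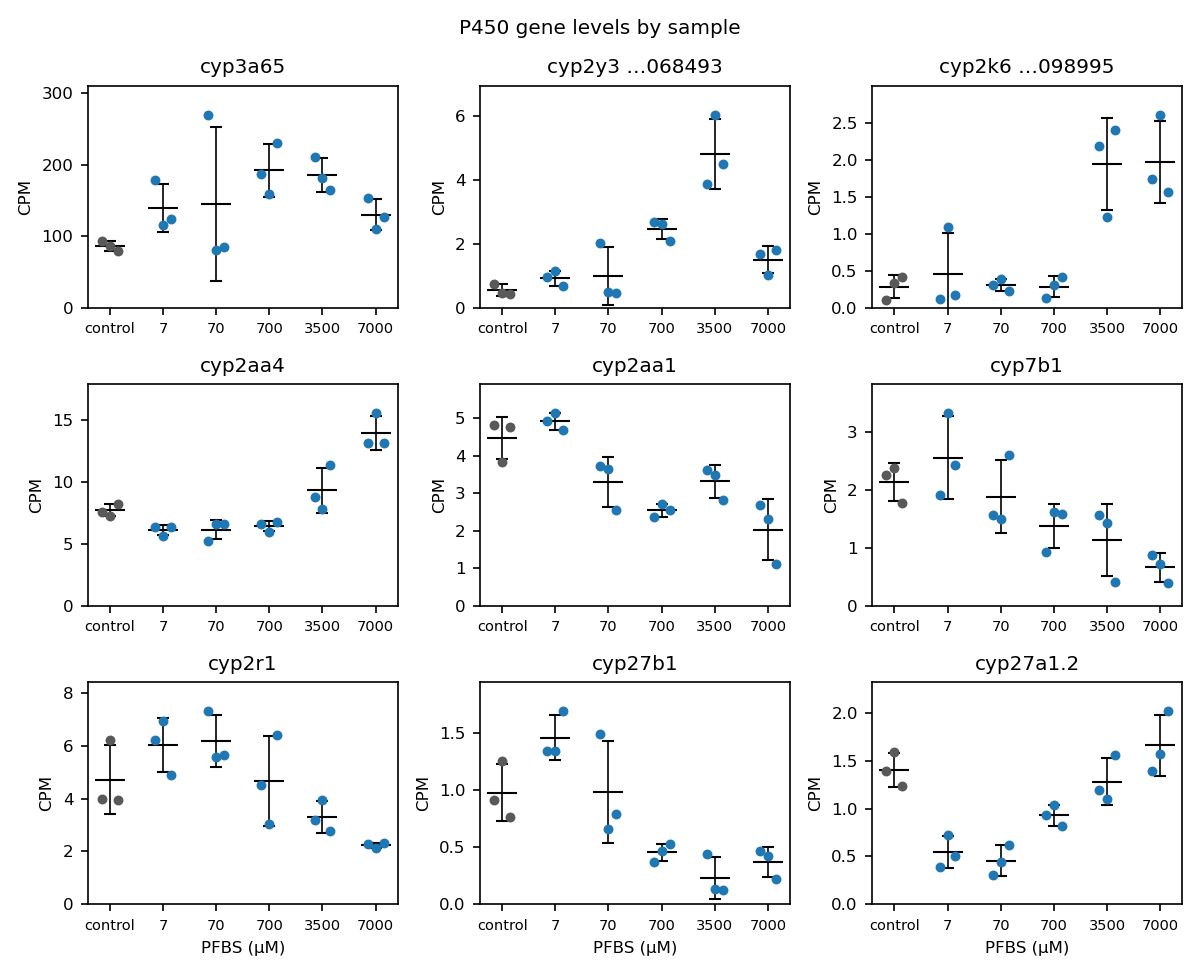
CPM of 9 P450 genes in each sample by PFBS concentration (grey, controls; blue, exposed), with the mean (long bar) and SD (whiskers, n = 3). By group mean cyp3a65 is highest at 700 µM and cyp2y3 at 3500 µM, cyp2k6 is high at 3500 and 7000 µM, cyp2aa4 is highest at 7000 µM, and cyp2aa1, cyp7b1 and cyp2r1 are lowest there.

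The largest rise against controls among the 67 tested genes was that of a short cyp2y3 gene (ENSDARG00000068493, chromosome 15, 18305 to 20710 in the coordinates of the deposited table, whose genome build the sources used here do not give). CPM was 0.751, 0.463 and 0.412 in controls, 0.953, 1.14 and 0.678 in 7 µM larvae, 2.04, 0.497 and 0.452 in 70 µM larvae, 2.67, 2.60 and 2.10 in 700 µM larvae, 3.88, 6.03 and 4.50 in 3500 µM larvae, and 1.69, 1.03 and 1.79 in 7000 µM larvae. All samples at 700, 3500 and 7000 µM lay above every control, and the 3500 µM samples were the highest of the series. Controls held 14, 7 and 7 reads, and 1 control library reached the low-count cutoff of 0.583 CPM, so the fold changes rest on few control reads. The log2 fold change was 2.15 ± 0.45 at 700 µM (adjusted p = 0.0192), 3.11 ± 0.43 at 3500 µM (adjusted p = 0.000431) and 1.45 ± 0.47 at 7000 µM (adjusted p = 0.0334). The gene fell again between the 2 highest concentrations, by 1.66 on the log2 scale at 7000 µM relative to 3500 µM (SE 0.37, adjusted p = 0.0148). The calls at 3500 µM and between 7000 and 3500 µM were kept whichever library was left out, but with transcripts tested in place of genes the second was lost (adjusted p = 0.0756), as were those at 700 µM (adjusted p = 0.0812) and 7000 µM (adjusted p = 0.0612). That at 700 µM was lost when 700 µM replicate 1 or 2 or control replicate 1 or 2 was left out (adjusted p = 0.0626 to 0.0860), and that at 7000 µM was lost when 7000 µM replicate 1 or 3 or control replicate 1, 2 or 3 was left out (adjusted p = 0.0535 to 0.117).

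This short gene lies on the same strand within the span of the longer cyp2y3 gene (ENSDARG00000101423, 16175 to 32151), so the authors' counting could split or misplace reads between the pair, and their values are uncertain to that extent. The longer gene had 16.3, 19.3 and 12.6 CPM at 7000 µM and 35.9, 31.1 and 25.4 CPM at 3500 µM, with no overlap. It fell by 0.94 on the log2 scale between them (SE 0.18, adjusted p = 0.00781), a call kept in all 6 fits that left out 1 of these libraries and lost with transcripts in place of genes (adjusted p = 0.0642). Its change at 3500 µM against controls, which had 23.3, 22.8 and 17.9 CPM, was 0.53 ± 0.18 (adjusted p = 0.0646). At 700 µM, where the short gene was called, the longer one had 18.2, 24.5 and 31.8 CPM and overlapped the controls.

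The cyp2k genes lie on chromosome 3, most of them near cyp2k18. Of the cyp2k genes under the rule 1 was higher and 1 lower at 7000 µM, where 12.7% of all genes were higher and 12.3% lower. cyp2k18, which the rule leaves out, was higher there as well (log2 3.21 ± 0.32, adjusted p = 1.22e-05). cyp2k6 (ENSDARG00000098995, 12816362 to 12826387) was near its limit of detection up to 700 µM: CPM was 0.107, 0.331 and 0.412 in controls, 0.112, 1.09 and 0.169 in 7 µM larvae, 0.300, 0.387 and 0.226 in 70 µM larvae, 0.124, 0.312 and 0.408 in 700 µM larvae, 2.19, 1.23 and 2.40 in 3500 µM larvae, and 1.75, 2.61 and 1.57 in 7000 µM larvae. The 6 samples at 3500 and 7000 µM lay above the other 12. In reads this was 35, 19 and 40 at 3500 µM, and 30, 43 and 28 at 7000 µM, against 2, 5 and 7 in controls. Its log2 fold change was 2.78 ± 0.59 at 3500 µM (adjusted p = 0.00944) and 2.79 ± 0.59 at 7000 µM (adjusted p = 0.00327). The gene passed the filter on low counts through those 2 groups, and no control library reached its cutoff of 0.583 CPM. The call at 3500 µM was lost when control replicate 1 was left out (adjusted p = 0.0621), and both were lost when transcripts were tested in place of genes (adjusted p = 0.211 and 0.117). cyp2k18 itself averaged 3.69 ± 0.933 CPM in controls, 29.3 ± 10.1 at 700 µM, 46.2 ± 4.23 at 3500 µM and 34.0 ± 3.60 at 7000 µM (SD, n = 3), so at 700 µM, where cyp2k18 was high, cyp2k6 averaged 0.282 ± 0.144 CPM against 0.283 ± 0.158 in controls.

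cyp2k16, between them on the chromosome, had 2.04, 2.30 and 1.35 CPM at 7000 µM, against 4.13, 3.31 and 3.53 in controls, without overlap. It fell by 0.95 on the log2 scale (SE 0.26, adjusted p = 0.0142), a call lost when 7000 µM replicate 3 or control replicate 1 was left out (adjusted p = 0.0672 to 0.0850). cyp2k21 had a change at 7000 µM of 0.77 ± 0.39 (adjusted p = 0.155), and its groups overlapped. The neighbours cyp2k8 and cyp2k19 had changes there of 0.10 ± 0.28 and 0.30 ± 0.20 (adjusted p = 0.821 and 0.290). Too few reads for a test were found for cyp2k17, cyp2k20, cyp2k22 and the second cyp2k6 gene.

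Among the cyp2x genes, whose substrates are little known, cyp2x8 and cyp2x7 were called. Both were higher, cyp2x8 at 3500 µM and cyp2x7 at 7000 µM, where 5.14% and 12.7% of all genes were higher in that order. cyp2x8 had 3.26, 2.72 and 3.00 CPM at 3500 µM, against 1.13, 0.926 and 0.884 in controls, and the groups did not overlap. It rose 3.03-fold (log2 1.60 ± 0.44, adjusted p = 0.0313), a call lost when 3500 µM replicate 1 or 3 or control replicate 1, 2 or 3 was left out (adjusted p = 0.0718 to 0.0981). At 7000 µM it had 1.28, 1.58 and 1.96 CPM, again above every control, with a log2 change of 0.71 ± 0.46 (adjusted p = 0.271). cyp2x7 had 3.03, 2.48 and 2.47 CPM at 7000 µM, against 1.50, 1.19 and 1.24 in controls, and rose by 1.01 ± 0.24 on the log2 scale (adjusted p = 0.00689), in every fit that left out 1 library. Its trend of 0.13 ± 0.04 per step (adjusted p = 0.0177) was lost when 7000 µM replicate 1 or control replicate 2 was left out (adjusted p = 0.0502 to 0.0565). Their neighbour cyp2x9 was not called: it had 7.62, 3.32 and 5.36 CPM in 7 µM larvae, 6.64, 5.38 and 2.58 in 3500 µM larvae and 2.27, 1.88 and 2.13 in 7000 µM larvae, against 2.57, 2.18 and 2.42 in controls. Its log2 change was 1.18 ± 0.37 at 7 µM (adjusted p = 0.532), where all 3 samples lay above the controls.

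cyp2n13, of a subfamily known in killifish to oxidise arachidonic acid, was not called. CPM was 10.03, 10.5 and 8.13 in controls, 23.1, 15.9 and 12.8 in 7 µM larvae, 26.2, 10.6 and 8.54 in 70 µM larvae, 16.8, 13.7 and 21.6 in 700 µM larvae, 14.8, 14.8 and 14.3 in 3500 µM larvae, and 11.7, 9.27 and 12.3 in 7000 µM larvae. The samples at 7, 700 and 3500 µM all lay above the controls, those at 7000 µM overlapped them, and 70 µM replicate 1 was the highest of the series. The change was 0.86 ± 0.31 at 700 µM (adjusted p = 0.124).

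The cyp2aa subfamily is a run of 10 genes on chromosome 23 (42292748 to 42493876), with 12 annotated genes in that span. Of the 9 with enough reads 2 were higher and 3 lower at 7000 µM, where 12.7% of all genes were higher and 12.3% lower. cyp2aa4 had 13.2, 15.6 and 13.2 CPM at 7000 µM and 8.76, 7.84 and 11.4 at 3500 µM, against 7.62, 7.28 and 8.25 in controls. All 7000 µM samples lay above the other groups. It rose by 0.85 ± 0.14 on the log2 scale at 7000 µM (adjusted p = 0.000607), a call kept in every fit that left out 1 library. Relative to 3500 µM the rise was 0.58 ± 0.14 (adjusted p = 0.0204), and this call was lost when 7000 µM replicate 2 or 3 or 3500 µM replicate 1 or 2 was left out (adjusted p = 0.0520 to 0.0814). cyp2aa11 had 3.38, 5.15 and 4.88 CPM at 7000 µM, against 3.16, 3.37 and 2.77 in controls, and rose by 0.53 ± 0.18 (adjusted p = 0.0432). All 3 exposed samples lay above the controls, but the lowest did so by little, and the call was lost with DESeq2 (adjusted p = 0.0575), with no filter on low counts (adjusted p = 0.0573) and when 7000 µM replicate 2 or 3 or control replicate 1, 2 or 3 was left out (adjusted p = 0.0684 to 0.155).

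On the other side, cyp2aa1 had 2.68, 2.30 and 1.12 CPM at 7000 µM, against 4.83, 3.84 and 4.77 in controls. It fell by 1.15 on the log2 scale (SE 0.24, adjusted p = 0.00291). cyp2aa3 had 0.349, 0.121 and 0.336 CPM at 7000 µM and 0.814, 0.972 and 0.600 at 3500 µM, against 0.912, 1.12 and 0.825 in controls. Its 7000 µM samples lay below all the others. They held 6, 2 and 6 reads, against 17, 17 and 14 in controls. No 7000 µM library reached the low-count cutoff of 0.583 CPM, so the fall rests on few reads. The fall was 1.78 on the log2 scale (SE 0.42, adjusted p = 0.00609) relative to controls and 1.52 (SE 0.43, adjusted p = 0.0425) relative to 3500 µM. cyp2aa8 had 1.40, 0.909 and 1.07 CPM at 7000 µM and 1.75, 1.23 and 1.38 at 3500 µM, against 2.63, 3.44 and 1.94 in controls, with no overlap at either. It fell by 1.24 (SE 0.27, adjusted p = 0.00394) at 7000 µM and by 0.87 (SE 0.26, adjusted p = 0.0450) at 3500 µM.

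These 3 falls at 7000 µM against controls were called in every fit that left out 1 library. The call of cyp2aa8 at 3500 µM was lost when 3500 µM replicate 1, 2 or 3 or control replicate 1 or 2 was left out (adjusted p = 0.0691 to 0.194), and that of cyp2aa3 between the 2 highest concentrations was lost when 7000 µM replicate 1, 2 or 3 or 3500 µM replicate 1 or 2 was left out (adjusted p = 0.0615 to 0.128). The annotated span of cyp2aa8 overlaps that of cyp2aa7 and covers those of cyp2aa11 and cyp2aa4, so reads could be shared between them. cyp2aa7 had a change at 7000 µM of -0.02 ± 0.21, cyp2aa6 of -0.06 ± 0.22, cyp2aa12 of 0.21 ± 0.29 and cyp2aa2 of -0.37 ± 0.37, none of them called. By start position cyp2aa11 and cyp2aa4, which rose, stand between cyp2aa8 and cyp2aa1, which fell.

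**Figure D5:**
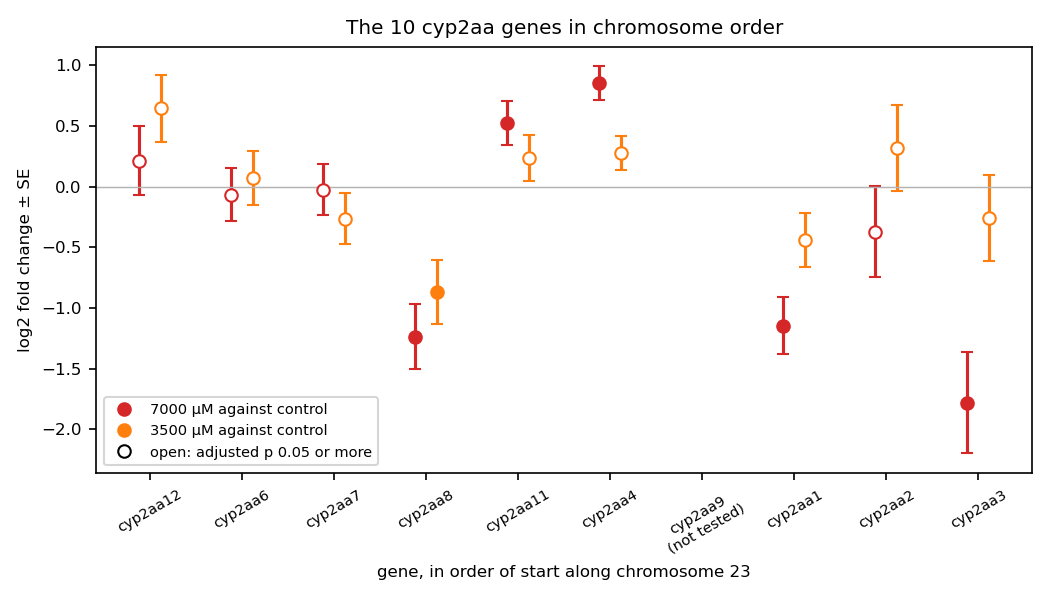
Log2 fold change ± SE of the cyp2aa genes at 7000 µM (red) and 3500 µM (orange) against controls, in their order along chromosome 23; filled points are called. cyp2aa11 and cyp2aa4 are above 0 at 7000 µM, and cyp2aa8, cyp2aa1 and cyp2aa3 below.

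A second run on chromosome 20 holds the cyp2p and cyp2ad genes with cyp2n13, cyp2j20 and cyp2v1, related to the mammalian CYP2J epoxygenases. cyp2p9 had 2.38, 2.07 and 3.06 CPM at 3500 µM, against 5.26, 5.03 and 3.30 in controls, without overlap. It fell by 0.85 on the log2 scale (SE 0.26, adjusted p = 0.0493), a call lost when 3500 µM replicate 1, 2 or 3 or control replicate 1 or 2 was left out (adjusted p = 0.0686 to 0.190). cyp2p8 had 1.51, 1.88 and 1.68 CPM at 7000 µM, against 4.99, 3.97 and 1.77 in controls, and here the groups overlapped. Its fall of 1.08 (SE 0.38, adjusted p = 0.0438) was lost when 7000 µM replicate 1, 2 or 3 or control replicate 1 or 2 was left out (adjusted p = 0.0614 to 0.231), and its trend of -0.25 ± 0.06 per step (adjusted p = 0.00500) was kept in each left-out fit. cyp2p7, whose annotated span covers cyp2p8, cyp2p9 and cyp2p10 and overlaps cyp2j20, had the opposite trend, 0.10 ± 0.03 per step (adjusted p = 0.0268), which was lost when 7000 µM replicate 2 or 3500 µM replicate 1 or control replicate 1 or 2 was left out (adjusted p = 0.0504 to 0.0886). The trend of cyp2ad2 was -0.10 ± 0.03 per step (adjusted p = 0.00575), with 9.89, 9.57 and 7.90 CPM at 7000 µM, against 12.1, 11.5 and 8.90 in controls.

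By contrast with these, cyp2ad3, the P450 gene with the highest mean TPM in controls, had 86.3, 84.0 and 92.7 CPM at 7000 µM, against 87.4, 99.8 and 82.7 in controls. Its log2 difference was -0.04 ± 0.10, with an approximate 95% interval of -0.23 to 0.16, and it was called in none of the 7 tests. The unadjusted p was not under 0.05 in any of them either. The annotated span of cyp2v1, on the other strand, covers those of cyp2ad2 and cyp2ad3. Strandedness was not given, so reads could be shared between them.

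The 3 genes of vitamin D metabolism were each called at 7000 µM, where 25.0% of all genes were called, with 2 lower and 1 higher. cyp2r1 hydroxylates vitamin D to calcidiol in liver, cyp27b1 turns calcidiol into the active hormone calcitriol, and cyp24a1 starts the breakdown of both. For cyp2r1, CPM was 3.97, 6.22 and 3.95 in controls, 6.22, 6.95 and 4.91 in 7 µM larvae, 7.31, 5.58 and 5.66 in 70 µM larvae, 4.53, 3.02 and 6.41 in 700 µM larvae, 3.19, 3.95 and 2.76 in 3500 µM larvae, and 2.27, 2.12 and 2.30 in 7000 µM larvae. The 3 samples at 7000 µM lay below all the other 15 samples. cyp2r1 fell by 1.07 on the log2 scale (SE 0.26, adjusted p = 0.00814), a call lost when control replicate 2 was left out (adjusted p = 0.0505). Its trend was -0.24 ± 0.04 per step (adjusted p = 0.000692).

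cyp27b1 was scarce, with 2 to 30 reads a library. CPM was 0.912, 1.26 and 0.766 in controls, 1.35, 1.35 and 1.69 in 7 µM larvae, 1.50, 0.663 and 0.792 in 70 µM larvae, 0.373, 0.469 and 0.525 in 700 µM larvae, 0.438, 0.130 and 0.120 in 3500 µM larvae, and 0.466, 0.424 and 0.224 in 7000 µM larvae. All 9 samples from 700 µM upwards lay below every control, while the 7 µM samples lay above them. None of those 9 reached the low-count cutoff of 0.583 CPM. The gene passed the filter through the controls and the 7 and 70 µM groups, so its falls rest on few reads. The log2 fold change was -2.05 ± 0.47 at 3500 µM (adjusted p = 0.0143) and -1.38 ± 0.43 at 7000 µM (adjusted p = 0.0262), and the trend was -0.45 ± 0.07 per step (adjusted p = 0.000282). The call at 3500 µM was lost when 3500 µM replicate 3 or control replicate 2 was left out (adjusted p = 0.0612 to 0.0753) and that at 7000 µM when 7000 µM replicate 3 or control replicate 1 or 2 was left out (adjusted p = 0.0635 to 0.129), whereas the trend was kept in all 18 left-out fits.

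In the other direction, cyp24a1 had 7.33, 7.15 and 9.64 CPM at 7000 µM and 4.70, 6.68 and 4.26 at 3500 µM, against 5.90, 5.89 and 4.18 in controls. The 7000 µM samples lay above both. It rose by 0.60 ± 0.20 on the log2 scale at 7000 µM (adjusted p = 0.0378), a call lost when 7000 µM replicate 3 or control replicate 1, 2 or 3 was left out (adjusted p = 0.0598 to 0.182). Of the receptors for calcitriol, vdrb fell by 0.71 on the log2 scale at 7000 µM (SE 0.24, adjusted p = 0.0406), and vdra was not called. The 6 kidney markers, from the organ in which mammals make most calcitriol, summed to 104, 115 and 87.8 CPM at 7000 µM and 143, 119.7 and 129 at 3500 µM, against 118, 130.1 and 104 in controls, and the controls overlapped both exposed groups.

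The bile acid and oxysterol set holds 13 genes, 11 of them tested. At 7000 µM 1 was lower and 1 higher, where 25.0% of all genes were called. cyp7b1 hydroxylates oxysterols in the alternative route to bile acids. CPM was 2.25, 2.38 and 1.77 in controls, 1.91, 3.32 and 2.43 in 7 µM larvae, 1.56, 1.49 and 2.60 in 70 µM larvae, 0.931, 1.61 and 1.57 in 700 µM larvae, 1.57, 1.43 and 0.420 in 3500 µM larvae, and 0.873, 0.727 and 0.392 in 7000 µM larvae. The 7000 µM samples all lay below the controls, and at 3500 µM replicate 3 was far below the other 2. cyp7b1 fell by 1.68 on the log2 scale at 7000 µM (SE 0.41, adjusted p = 0.00806), a call kept in every fit that left out 1 library, and its trend was -0.35 ± 0.07 per step (adjusted p = 0.000953).

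cyp7a1, the rate-limiting enzyme of the classical route to bile acids, had 3.14, 2.97 and 3.87 CPM at 7000 µM, against 5.90, 6.42 and 4.48 in controls. The groups did not overlap, and the log2 change was -0.75 ± 0.36 (adjusted p = 0.135). It was called in the trend alone, at -0.20 ± 0.06 per step (adjusted p = 0.0169), in all 18 left-out fits. cyp8b1, which directs the pathway to cholic acid in mammals, was not called by edgeR: it had 6.84, 6.54 and 4.07 CPM at 7 µM, against 2.84, 2.65 and 2.36 in controls, without overlap and with a log2 change of 1.15 ± 0.24 (adjusted p = 0.160). DESeq2 called it (adjusted p = 0.0146).

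cyp27a1.2, 1 of 3 neighbouring genes for the mitochondrial sterol side-chain hydroxylase, was lowest at the low concentrations. CPM was 1.39, 1.59 and 1.24 in controls, 0.392, 0.726 and 0.508 in 7 µM larvae, 0.300, 0.442 and 0.622 in 70 µM larvae, 0.931, 1.04 and 0.816 in 700 µM larvae, 1.19, 1.10 and 1.56 in 3500 µM larvae, and 1.40, 1.58 and 2.02 in 7000 µM larvae. The 6 samples at 7 and 70 µM and the 3 at 700 µM lay below every control, and those at 7000 µM overlapped the controls. At 70 µM the fall was 1.60 on the log2 scale (SE 0.31, adjusted p = 0.0334), the single P450 call at that concentration. It was lost when 70 µM replicate 1 or 2 or control replicate 1, 2 or 3 was left out (adjusted p = 0.0703 to 0.206), while the log2 fold change stayed between -1.89 and -1.39 in the fits that left out 1 library. The change at 7 µM was -1.35 ± 0.30 (adjusted p = 0.170). Because of the return at high concentration its trend was upward, 0.17 ± 0.05 per step (adjusted p = 0.00963), although no exposed group was called above controls. Its neighbour cyp27a1.4 had 3.26, 4.18 and 4.60 CPM at 7000 µM, against 2.84, 2.71 and 3.24 in controls, and a trend of 0.10 ± 0.03 per step (adjusted p = 0.0236), lost when 7000 µM replicate 3 or control replicate 1 or 2 was left out (adjusted p = 0.0618 to 0.0851). The third gene, cyp27a7, was the most abundant of the 3 by mean TPM in controls and was not called in any test. It had 6.23, 7.82 and 5.44 CPM at 7000 µM, against 8.04, 8.53 and 7.84 in controls. Every exposed sample of the series lay below the controls for cyp27a7, 7000 µM replicate 2 by little.

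Among the 4 cyp46a1 genes on chromosome 20, which encode the cholesterol hydroxylase of brain, cyp46a1.4 had 0.698, 1.58 and 0.729 CPM at 7000 µM, against 0.268, 0.198 and 0.295 in controls. It rose by 1.93 ± 0.51 on the log2 scale (adjusted p = 0.0121), a call lost when 7000 µM replicate 2 was left out (adjusted p = 0.0548). No control library reached the low-count cutoff for this gene, so its fold rests on a few reads in controls. cyp46a1.1 was called in the trend alone (0.11 ± 0.04 per step, adjusted p = 0.0301), a call lost when 7000 µM replicate 1 or 3 or 3500 µM replicate 3 or control replicate 2 or 3 was left out (adjusted p = 0.0501 to 0.146). cyp46a1.2 and cyp46a1.3 had changes at 7000 µM of -0.13 ± 0.33 and -0.26 ± 0.35 and were not called. The 6 brain and radial glia markers summed to 2228, 2159 and 2446 CPM at 7000 µM, against 1915, 1991 and 2140.0 in controls, so the 3 exposed sums lay above the controls. Their part in the cyp46a1.4 result was not tested.

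Several of these genes, with cyp2r1, are expressed in liver. Of the 16 hepatocyte markers measured, none was higher and 8 were lower at 3500 µM, with a median log2 fold change of -1.39, and 4 were lower at 7000 µM, with a median of -0.74, where 4.33% and 12.3% of all genes were lower in that order of concentration. Their sum was 409.5, 483 and 390.3 CPM at 7000 µM and 415, 380.0 and 294 at 3500 µM, against 684, 709 and 367 in controls, so control replicate 3 lay below the 7000 µM samples and within the range of the 3500 µM samples. The part of liver content in the falls of cyp7a1, cyp7b1 and cyp2r1 was not tested.

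In steroid synthesis 5 of 8 genes, cyp11a1, cyp11a2, cyp17a2, cyp19a1a and cyp21a2, had too few reads for a test in whole larvae. None of the 3 others was called against controls. cyp11c1, which makes cortisol from its precursor in the interrenal gland of fish, had 12.1, 12.1 and 21.2 CPM at 7000 µM and 9.20, 7.39 and 10.4 CPM at 3500 µM, and controls had 10.3, 12.2 and 10.6. It was higher at 7000 µM than at 3500 µM by 0.75 ± 0.21 on the log2 scale (adjusted p = 0.0373), with replicate 3 well above the other 2, and the call was lost when 7000 µM replicate 3 or 3500 µM replicate 1 or 2 was left out (adjusted p = 0.103 to 0.262). Its change at 7000 µM against controls was 0.46 ± 0.20 (adjusted p = 0.0996). The 5 interrenal markers summed to 3.38, 3.33 and 2.92 CPM at 7000 µM and 2.00, 2.59 and 2.52 at 3500 µM, against 2.09, 2.32 and 1.77 in controls, and the receptor mc2r was at 0 in every sample. The part of this tissue in the cyp11c1 result was not tested.

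cyp17a1, the hydroxylase and lyase on the way to androgens and, in mammals, cortisol, had 2.21, 2.42 and 0.953 CPM at 7000 µM and 0.497, 1.41 and 2.16 at 700 µM, against 4.08, 3.37 and 2.24 in controls. Its trend was -0.17 ± 0.06 per step (adjusted p = 0.0444), and this was lost in 11 of 18 left-out fits (adjusted p = 0.0506 to 0.145). The brain aromatase cyp19a1b averaged 0.426 ± 0.186 CPM at 7000 µM, against 0.442 ± 0.213 in controls (SD, n = 3), and the approximate 95% interval of its log2 change was -1.24 to 1.18, so changes within it were not detectable at this depth.

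For the retinoid genes, cyp27c1, which desaturates retinol in zebrafish, had a small upward trend of 0.06 ± 0.02 per step (adjusted p = 0.0348), lost when 7000 µM replicate 2 or 3 or 3500 µM replicate 1 or 7 µM replicate 2 or 3 or control replicate 1 or 2 was left out (adjusted p = 0.0531 to 0.0953). cyp26c1, an enzyme that clears retinoic acid, was not called (-0.16 ± 0.14 at 7000 µM). Family 4 holds fatty acid hydroxylases, and 1 of its 4 genes was called, in the trend, where 18.9% of all genes were called downward. This gene, cyp4v8, had 8.61, 7.27 and 5.55 CPM at 7000 µM, against 12.9, 14.2 and 8.07 in controls, with a trend of -0.17 ± 0.05 per step (adjusted p = 0.00888) kept in all left-out fits. These groups overlapped. The orphan P450 cyp20a1 had 11.9, 12.8 and 12.8 CPM at 7000 µM, against 11.2, 11.6 and 13.8 in controls, with a log2 change of 0.04 ± 0.11 and an approximate 95% interval of -0.19 to 0.26.

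Trends not yet given were called for 7 genes in each of the 18 left-out fits, upward for cyp2k6 (0.57 ± 0.10 per step), the short cyp2y3 gene (0.45 ± 0.08), cyp46a1.4 (0.29 ± 0.08) and cyp2aa4 (0.18 ± 0.02), and downward for cyp2aa3 (-0.29 ± 0.07), cyp2aa1 (-0.22 ± 0.04) and cyp2aa8 (-0.19 ± 0.05). The trends of cyp2aa11 (0.09 ± 0.03) and cyp24a1 (0.10 ± 0.03), upward, and of cyp2k16 (-0.14 ± 0.04) and cyp2p9 (-0.13 ± 0.04), downward, were called as well, and each was lost in 2 to 5 of those fits. With transcripts in place of genes 23 of the 56 calls were lost (adjusted p = 0.0511 to 0.211), among them that of cyp2x8 at 3500 µM (adjusted p = 0.0683), that of cyp1a at 7000 µM (adjusted p = 0.0733) and that of cyp27b1 at 7000 µM (adjusted p = 0.0719). For each gene the transcript with the lowest adjusted p was taken. Over all transcripts the share called was lower too, at 3.28% at 3500 µM and 14.2% at 7000 µM, against 9.47% and 25.0% of genes.

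The 2 highest concentrations differed in 5 P450 genes, or 7.46% of those tested against 6.28% of all genes, with 2 higher at 7000 µM than at 3500 µM (2.44% of all genes) and 3 lower (3.84%). These were cyp11c1 and cyp2aa4, higher at 7000 µM, and both cyp2y3 genes and cyp2aa3, lower. The 2 cyp2y3 calls held in every fit that left out 1 library, and without 7000 µM replicate 3 they were the count of 2 that was left.

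Of 22 tested regulators of P450 genes, none was called at 7, 70 or 700 µM, 1 was higher and 1 lower at 3500 µM, and 2 were higher and 3 lower at 7000 µM. Of all genes 9.47% were called at 3500 µM and 25.0% at 7000 µM. In the trend 4 regulators were higher and 6 lower, where 37.5% of all genes were called. The aryl hydrocarbon receptor ahr2 had a log2 change at 7000 µM of -0.41 ± 0.15 (adjusted p = 0.0510) and a trend of -0.07 ± 0.03 per step (adjusted p = 0.0479). Another such receptor, ahr1b, went the other way at 7000 µM, by 0.36 ± 0.14 (adjusted p = 0.0685), with its samples above every control. The pregnane X receptor nr1i2 had a change of 0.04 ± 0.24 at 7000 µM (adjusted p = 0.922). At 700 µM nr1i2 lay below every control, with a change of -0.77 ± 0.25 (adjusted p = 0.0996). The target genes ahrra, ahrrb and tiparp of the aryl hydrocarbon receptor were not called. nr5a2, a receptor that drives bile acid enzymes, fell by 1.13 on the log2 scale at 7000 µM (SE 0.23, adjusted p = 0.00272). nr0b2a, which encodes the small heterodimer partner that represses them, fell by 0.98 (SE 0.32, adjusted p = 0.0349).

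Of 14 electron donors and partners, 1 was higher at 700 µM, 3 at 3500 µM, and 4 were higher and 1 lower at 7000 µM, where 3.2%, 9.47% and 25.0% of all genes were called in that order of concentration. alas1, the first and rate-limiting enzyme of haem synthesis in liver, rose on the log2 scale by 0.68 ± 0.18 in 700 µM larvae (adjusted p = 0.0474), by 0.71 ± 0.18 in 3500 µM larvae (adjusted p = 0.0236) and by 0.61 ± 0.18 in 7000 µM larvae (adjusted p = 0.0206). Both genes for the P450 reductase rose at 7000 µM, pora by 0.31 ± 0.06 (adjusted p = 0.00309) and porb by 0.53 ± 0.13 (adjusted p = 0.00822). The ferredoxin fdx1, which serves mitochondrial P450 enzymes, rose by 0.38 ± 0.10 at 3500 µM (adjusted p = 0.0233).

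Of 11 tested partners in steroid and bile acid metabolism, 1 was higher at 700 µM, 3 were higher and 1 lower at 3500 µM, and 2 were higher and 1 lower at 7000 µM, beside the same shares of all genes. The cortisol-inactivating enzymes rose: hsd11b2 by 1.11 ± 0.17 (adjusted p = 0.000368) and hsd20b2 by 1.31 ± 0.20 (adjusted p = 0.000416) at 7000 µM. The bile salt export pump abcb11b fell by 1.84 on the log2 scale at 3500 µM (SE 0.34, adjusted p = 0.00415), and its change at 7000 µM was -0.46 ± 0.30 (adjusted p = 0.270).

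In the authors' deposited table, which tests transcripts and not genes, P450 transcripts at q under 0.05 numbered 1 in 7 µM larvae, 0 in 70 µM larvae, 3 in 700 µM larvae, 5 in 3500 µM larvae and 4 in 7000 µM larvae, with 1 of them, cyp7b1 at 7000 µM, lower. These counts are out of 145 P450 transcripts. Of all 59876 transcripts 95, 181, 1048, 1163 and 3362 passed in that order of concentration. In the authors' deposited table cyp3a65 passed at 4 concentrations, with log2 fold changes of 0.69 in 7 µM larvae (q = 0.0308), 1.15 in 700 µM larvae (q = 9.27e-11), 1.13 in 3500 µM larvae (q = 3.67e-17) and 0.64 in 7000 µM larvae (q = 0.00112), whereas edgeR's test over the 18 libraries called it at 3500 µM alone. In the authors' deposited table cyp2n13 also passed, at 0.92 (q = 0.0244) at 700 µM and 0.78 (q = 0.00841) at 3500 µM. The sources used here do not give the test behind those q-values.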

How the data were processed

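RNA of 18 whole-body samples in 6 groups of 3 was sequenced. Per the file headers, the authors deposited for each transcript a whole-number read count and a TPM value per sample, and for each concentration a log2 fold change, a p-value and a q-value against controls; RPKM values were not used. The aligner, counting program, genome build, annotation release, strandedness and treatment of reads that map to several places were not given in the sources used here. Transcripts with no read in any sample numbered 10033. Of the 82 gene identifiers 80 matched the reference symbol table.

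The deposited counts were summed per gene, giving 14937147 to 19267232 reads a sample, and filtered (filterByExpr), scaled (TMM) and tested with edgeR 4.0.16 under R 4.3.3 in 1 quasi-likelihood fit whose terms were the 6 group means, with Benjamini-Hochberg adjustment over 21046 genes and a threshold of 0.05. Two-sided tests were made for 5 concentrations against controls, 7000 against 3500 µM, and a linear trend over group order. Standard errors were derived from the F statistics, and approximate 95% intervals from them. The common dispersion of 0.0167 corresponds to a coefficient of variation of 12.9% between samples. The p-values of these edgeR fits carry the adjustments given in the text. In counts simulated for 7000 µM against controls over 20860 genes, the procedure called 43 of 50 genes set at log2 -2, 36 of 50 at log2 -1, 39 of 50 at log2 1, 48 of 50 at log2 2, and 11 of 20660 unchanged genes.

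Alternatives were DESeq2 1.42.0, other size factors (RLE), no low-count filter, a replicate block, transcripts in place of genes, the 2 groups compared alone, and leaving out each library. P450 genes named with values were all those called in any test (at most 30), the 5 with the highest control TPM and some of the uncalled members of role sets (by family or pathway). The other uncalled members are given without values. The members and all lists were chosen with earlier results of these data known. Figures were drawn with matplotlib 3.10.9.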

Additional observations from a re-analysis of the deposited data

How the results depend on the processing

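No P450 result changed direction under any alternative. Of 56 calls, RLE size factors kept 56, and DESeq2 kept 52, lost cyp3a65 at 3500 µM and cyp2aa11 at 7000 µM, and gave no adjusted value for 2. No low-count filter kept 53, a replicate block 49 and transcripts in place of genes 33. In the fits of the 2 groups alone, made for 29 calls, 21 were kept; those lost were cyp27a1.2 at 70 µM, cyp2p9 and cyp2aa8 at 3500 µM, cyp2p8, cyp24a1 and cyp2aa11 at 7000 µM, and cyp11c1 and cyp2aa4 between 7000 and 3500 µM (edgeR adjusted p = 0.0519 to 0.132). Counts of P450 genes called that moved by over 1.5 times were these. At 7 µM DESeq2 called 1, against 0. At 70 µM, against 1, the replicate block, transcripts and the 2 groups alone each called 0. At 700 µM, against 1, DESeq2 called 3, no filter 2, the replicate block 2, transcripts 0 and the 2 groups alone 6. Transcripts called 2 at 3500 µM, against 7, and 9 at 7000 µM, against 16. Of all transcripts tested 3.28% and 14.2% were called at these concentrations, against 9.47% and 25.0% of all genes. For 7000 against 3500 µM, against 5, transcripts called 1 and the 2 groups alone 2. Leaving out 1 library at a time gave 0 to 0 calls at 7 µM, 0 to 1 at 70 µM, 0 to 4 at 700 µM, 2 to 9 at 3500 µM, 9 to 15 at 7000 µM, 2 to 6 for 7000 against 3500 µM and 19 to 28 in the trend; the calls kept in every such fit were 0 of 1, 0 of 1, 1 of 7, 7 of 16, 2 of 5 and 16 of 26 from 70 µM on. Calls among all genes in those fits ranged from 2 to 12 at 7 µM and 8 to 289 at 70 µM. They ranged from 42 to 1302 at 700 µM, 478 to 3333 at 3500 µM and 2362 to 5616 at 7000 µM. For 7000 against 3500 µM the range was 287 to 1726 and in the trend 5758 to 8524. Fewer samples entered each of these fits. Otherwise the cause was not tested. The replicate block gave 0 calls at 7 µM, 5 at 3500 µM, 14 at 7000 µM, 4 for 7000 against 3500 µM and 26 in the trend; replicate numbers did not pair the samples (mean correlation of same-numbered deviations -0.02 over 45 pairs, 13 of them over 0.1; 4 of 18 samples correlated best with their own number). No scaling moved the median of all genes by over 0.1 on the log2 scale. The 15 of 82 genes with at most 2 libraries past the cutoff of 0.583 CPM could not be tested. Shared or nested genes limit the cyp2y3, cyp2aa8 and cyp2p7 values and, if counting ignored strand, those of cyp2ad2, cyp2ad3 and cyp2v1.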

Other observations

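The deposited table describes 2 further genes as P450 genes that the naming rule did not reach. CR354540.1 (ENSDARG00000004051), described there as a family 7 subfamily A gene, had 1.75, 1.82 and 2.41 CPM at 7000 µM, against 0.912, 2.12 and 1.53 CPM in controls, and the groups overlapped (adjusted p = 0.371, edgeR). FO904880.1 (ENSDARG00000110366), described as similar to the 2J6 enzyme, had 0.617, 0.675 and 0.621 CPM at 7 µM, against 0.375, 0.199 and 0.412 CPM in controls, without overlap (adjusted p = 0.869, edgeR). tbxas1 and ptgis, which encode thromboxane and prostacyclin synthase and are P450 enzymes by structure, were not called at any concentration against controls by edgeR, and tbxas1 had a trend of 0.05 ± 0.02 per step (adjusted p = 0.0251).

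The order of levels over the concentrations differed among P450 genes in these data. cyp3a65, cyp2n13 and cyp2x8 stood above the controls in every sample at 7 µM, where edgeR called no P450 gene, and cyp27a1.2 stood below them in every sample there, with 0.392, 0.726 and 0.508 CPM at 7 µM, against 1.39, 1.59 and 1.24 in controls. cyp46a1.4 stood above the controls in every sample at 7 µM (0.897, 0.467 and 0.395 CPM, against 0.268, 0.198 and 0.295) and was called at 7000 µM alone among the concentrations. cyp8b1, cyp2x9 and cyp27b1 likewise stood above the controls in all 3 samples at 7 µM. The genes named here are some of the 13 above and 5 below the controls without overlap at 7 µM, among 67 tested. Such a count was not made over all genes, so no excess of P450 genes can be read from it. With 3 samples a group, non-overlap also occurs without a difference.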
